A study of Mus musculus with 23 samples.

Results

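The genes described here are 30 transcripts of 2 stress programmes: 22 form the ATF4 arm, which covers amino acid synthesis, amino acid transport and tRNA charging, and 8 form the endoplasmic reticulum (ER) arm of chaperones and unfolded protein response genes. They were chosen by symbol and matched to the Ensembl identifiers of the deposited count tables, which list 55573 genes. All 30 symbols were found. They were read in 23 libraries of mouse embryonic stem cells (ESCs), which form 19 samples, since 4 sample codes in the titles (2a, 2b, 2d and 2e) cover 2 libraries each and those were summed for the tests.

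R1 ESCs, an established mouse line, were either wild type (WT) or labelled as knockout (KO) of the histone chaperone gene Set (genotype SET-/-, with 2 lines named KO1 and KO2), although Set tags remained in set 2 as given below. The deposited files are named differently for the KO lines of the 2 sets, so KO1 and KO2 may not be the same lines in both. Title codes that start with 1 form set 1 (2 WT and 4 KO samples) and untreated codes that start with 2 form set 2 (2 WT and 4 KO samples, from 4 and 6 libraries). Under set 2 codes, 1 WT and 2 KO1 samples were taken after 4 days with retinoic acid (RA), a differentiation signal, at a dose the sources used here do not give. KH2 ESCs, a line built for doxycycline (Dox) inducible transgenes, carried SETa-HA, a tagged form of SET, and were sampled as 2 untreated samples and 2 samples given Dox at 1 µg/mL for 24 h. The common growth conditions of the labels are plates coated with mouse embryonic fibroblasts, serum medium with non-essential amino acids and glutamine, and LIF, so a library may hold fibroblast RNA. The labels do not say whether samples were separate cultures, so the p-values reflect sample-to-sample spread that could be purely technical.

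ATF4 is a transcription factor whose protein is made preferentially when phosphorylation of the initiation factor eIF2 slows general translation, as happens on amino acid shortage, haem shortage, viral double-stranded RNA or ER stress. It binds composite C/EBP-ATF sites, also called amino acid response elements, and induces genes that make, import and charge amino acids, as well as feedback and death-related regulators such as Trib3, Chac1 and Ddit3. The unfolded protein response of the ER has 3 sensors: PERK, which feeds into ATF4, and IRE1 and ATF6, which act through XBP1 and cleaved ATF6 on ER stress response elements of chaperone genes such as Hspa5. Because ATF4 is controlled mainly by translation, the level of Atf4 mRNA does not measure its activity.

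The promoters of the 2 arms were compared first, because the arms are named for the factors known to bind such sites. RefSeq promoter windows of build GRCm38.p6, from 250 bases before to 50 bases after each start, were found for 20 of the 22 ATF4-arm genes and for all 8 ER-arm genes. The core TGATGNAA, searched on both strands, was in the windows of 9 of the 20 ATF4-arm genes (Aars, Asns, Atf3, Chac1, Gars, Nupr1, Slc7a11, Trib3 and Vldlr) and 1 of the 8 ER-arm genes (Herpud1), against 3.97% of all 32851 windows. The ER stress response element, CCAAT and CCACG with 9 bases between them, was in 3 of the 8 ER-arm windows (Calr, Hsp90b1 and Hspa5), in none of the ATF4-arm windows and in 0.119% of all windows. Its second form, ATTGG, 1 base and CCACG, was in Herpud1 and in 0.0365% of all windows. The capitals below mark the core in 4 ATF4-arm genes, on the strand of the gene, so that TTGCATCA and TTTCATCA are the core on the opposite strand.
Asns (chr6:7693214-7693243, minus strand): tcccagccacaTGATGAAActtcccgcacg
Chac1 (chr2:119351019-119351086, plus strand): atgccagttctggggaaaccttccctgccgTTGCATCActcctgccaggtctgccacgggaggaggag
Gars (chr6:55037941-55038000, plus strand): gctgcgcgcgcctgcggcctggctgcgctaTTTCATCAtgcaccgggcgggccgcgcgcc
Vldlr (chr19:27216809-27216838, plus strand): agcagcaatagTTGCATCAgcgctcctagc

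The core began 23 bases before the RefSeq start in Asns (position -23), 30 in Gars (-30), 193 in Chac1 (-193) and 200 in Vldlr (-200). In Asns and Vldlr these bases also lie in an exon of an Ensembl gene model that starts further upstream. These 4 are shown because 3 of them (Asns, Chac1, Gars) fell and Vldlr rose in WT cells under RA, as described below. Of the 9 genes with the core, 5 fell there (Aars and Trib3 besides these 3), Vldlr rose, Atf3 and Nupr1 were not called and Slc7a11 was not tested. Of the 6 other ATF4-arm genes that fell, Psat1, Shmt2, Mthfd2, Slc3a2 and Sars had no core in their windows, and no window was matched for Slc7a5. The core of Trib3 lies after the start (position 14). With only the bases before the start counted, 8 of the 20 ATF4-arm genes hold the core, against 3.45% of all windows. For the ER arm, the capitals mark the ER stress response element in the 3 genes that hold it and its second form in Herpud1.
Hspa5 (chr2:34772020-34772048, plus strand): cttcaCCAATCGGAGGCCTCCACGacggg
Hsp90b1 (chr10:86705608-86705686, minus strand): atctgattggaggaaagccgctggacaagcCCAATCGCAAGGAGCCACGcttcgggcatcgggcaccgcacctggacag
Calr (chr8:84847045-84847123, minus strand): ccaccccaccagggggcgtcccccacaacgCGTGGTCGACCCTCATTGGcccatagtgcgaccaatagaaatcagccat
Herpud1 (chr8:94386347-94386417, plus strand): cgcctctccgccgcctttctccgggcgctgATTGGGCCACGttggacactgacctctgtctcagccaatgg

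Hsp90b1 holds a further copy of the element on the opposite strand, and in Calr the element is on the opposite strand, so CCAAT and CCACG read in that order on the strand complementary to the gene. In Hspa5 the bases of the element also lie in an exon of an Ensembl gene model that starts further upstream. A match is a description of the letters in these windows and says nothing of binding in these cells.

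Set 1 samples held 806412 to 1445013 assigned counts, KH2 samples 4848478 to 6472695, RA samples 3904924 to 5047363 and the untreated samples of set 2 2833064 to 10217040. A count of 3 corresponds to at most 3.72 CPM (counts scaled to a common library total of 1000000) in set 1 and at most 1.06 in the other samples. In the single libraries of untreated set 2, whose values are often given below, it corresponds to 0.378 to 2.11 CPM. Levels below are CPM, which for 3′ end libraries are not divided by gene length. Set itself was read as a check of the KO labels. It was 1077 ± 26.6 CPM (SD, n = 2) in set 1 WT and 23.7 ± 3.88 (n = 4) in set 1 KO, 1226 ± 127 (n = 2) and 425 ± 131 (n = 4) in set 2, and 546 against 224 ± 63.4 (n = 2) after RA. In KH2 cells it was 935 ± 51.5 without Dox and 1127 ± 109 with Dox (n = 2 each), and the edgeR adjusted p of that difference was 0.175. Whether 3′ tags of the transgene are counted at the Set gene was not tested, so these values do not measure its induction. KO libraries of set 2 therefore kept far more Set tags than those of set 1. In bulk samples, fewer cells of a type and less RNA per cell cannot be told apart.

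The 9 regulators covered a wide range of levels. Atf4 itself (Ensembl identifier ENSMUSG00000042406) ran from 290 to 1262 CPM over the 23 libraries, and Atf3, Cebpb and Vldlr stayed under 40 CPM in every library. Slc7a11, the cystine importer, had 22 counts in all and none in 8 libraries, so it was listed but not tested, which left 29 of the 30 genes in most comparisons. Ddit3, which encodes the death-related factor CHOP, had 540 counts in all libraries together and its gene model shares exonic bases with a second Ddit3 identifier and with Mars, so its values are uncertain. In Aars, all of the last 500 exonic bases are shared with overlapping genes, so its tags come from elsewhere in the gene model.

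Levels of several ATF4-arm genes differed between the sets already in WT cells. Chac1, a glutathione-degrading enzyme (ENSMUSG00000027313, GRCm38 chromosome 2, 119351229 to 119354381), was at 52.5 and 63.9 CPM in the 2 set 1 WT samples, and at 8.13 to 34.5 CPM in the 4 set 2 WT libraries. Asns, which makes asparagine (ENSMUSG00000029752, chromosome 6, 7675169 to 7693254), was at 184 and 124 CPM in set 1 WT and at 33.2 to 42.9 in set 2 WT. Slc7a5, the light chain of the large neutral amino acid transporter (ENSMUSG00000040010, chromosome 8, 121881150 to 121907694), went the other way, from 54.3 and 100.9 CPM to between 232 and 427. None of these ranges overlapped, but these genes were picked as examples and the share of all genes without overlap was not counted. With 2 samples against 4 libraries, a lack of overlap therefore does not establish a difference. In the ER arm, Hspa5 did not overlap either, at 929 and 961 CPM in set 1 WT and 1636 to 1901 in set 2 WT. Calr did overlap, at 749 and 647 CPM against 634 to 781, and so did Trib3 of the ATF4 arm, at 57.1 and 64.8 CPM against 32.5 to 68.1. KH2 cells without Dox had Asns at 209 and 234 CPM, Slc7a5 at 390 and 411, Chac1 at 6.11 and 6.39, and Ddit4 at 1181 and 1157. The sets and lines differ in the labels' code or cell line and in unknown ways besides, so these levels are given as a description with no test.

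**Figure D1:**
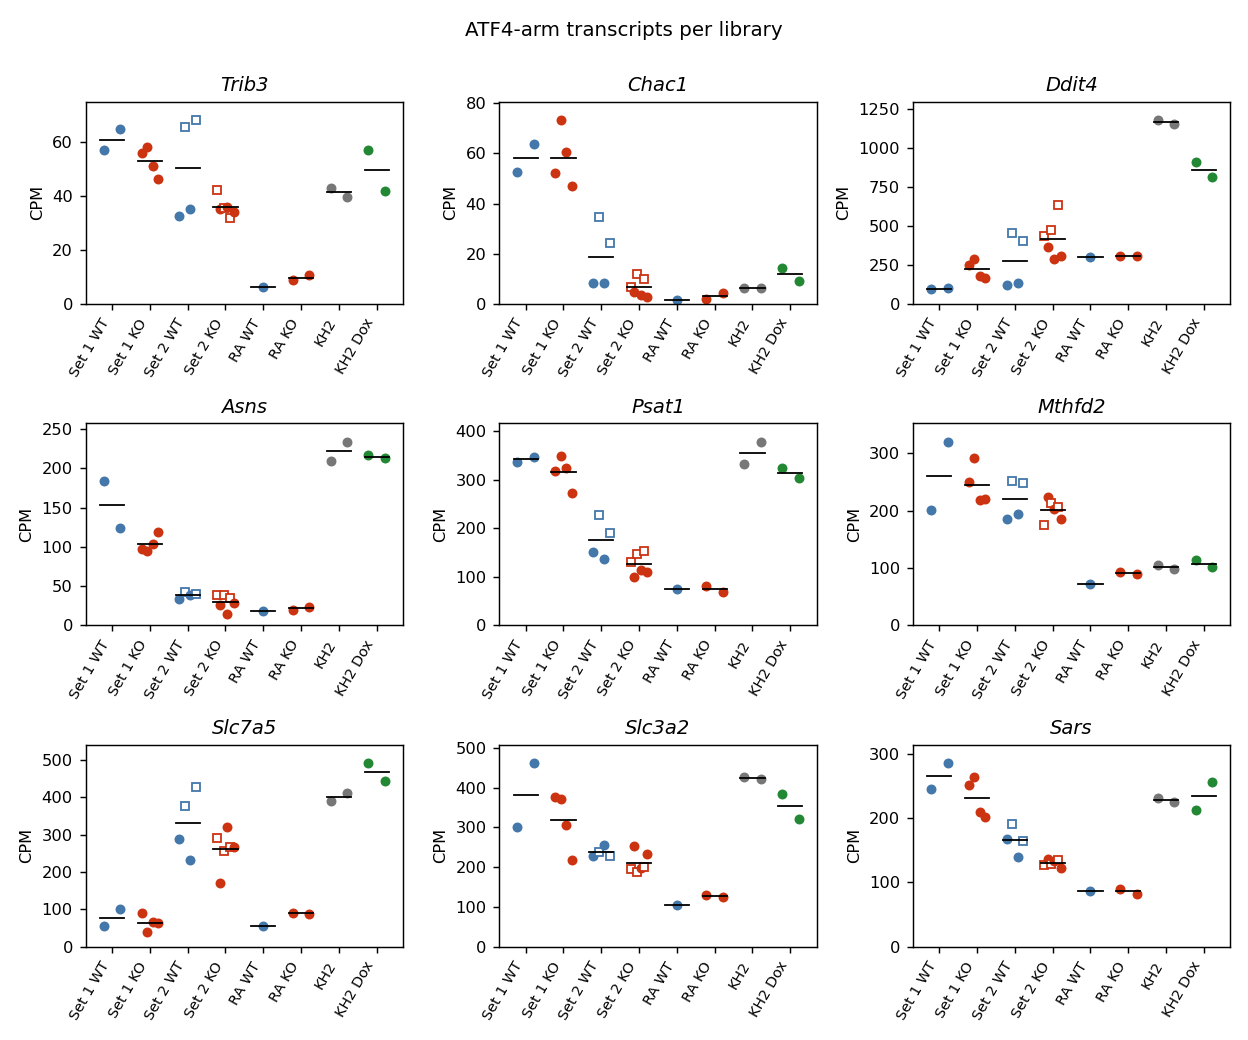
CPM of 9 ATF4-arm genes (y axes, from 0) in every library of the 8 groups (x axes), blue for R1 WT, red for R1 KO, grey for KH2 and green for KH2 with Dox, with the mean over libraries as a black line. White squares are the untreated set 2 libraries in the second of 2 groups along a first principal component. That component was taken after the means of WT, KO1 and KO2 were subtracted. Under RA (1 WT and 2 KO libraries), Trib3, Mthfd2 and Slc3a2 lie below every untreated set 2 library.

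The comparison of KO with WT cells asked which of these genes differ with the SET genotype in R1 cells not given RA. Over both sets, 3 of the 29 genes tested were higher in KO and 4 were lower (edgeR's quasi-likelihood test, Benjamini-Hochberg adjusted p at most 0.05 over all 11515 genes tested). The growth inhibitor Ddit4 and the ER proteins Hspa5 and Calr rose, while Asns, Psat1, Aars and Sars fell, by small amounts apart from Ddit4. Of all genes tested, 10.4% were called higher and 8.63% lower, so 7 of 29 is near the share of all genes called. Without WT 1b of set 1 the count was 4, and without KO1 1d it was 11. The median log2 fold change was -0.26 over the 21 ATF4-arm genes tested, 0.12 over the 8 ER-arm genes and -0.02 over all genes tested.

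Among the regulators, Ddit4, an inhibitor of mTORC1 that is a target of ATF4, of p53 and of other stress factors (ENSMUSG00000020108, chromosome 10, 59949669 to 59951834), was at 95.1 and 100 CPM in set 1 WT. It was at 252, 286, 178 and 168 CPM in the set 1 KO samples. In set 2 the WT libraries were at 119.9 and 132 CPM (first libraries of 2a and 2b) and at 454 and 401 (second libraries), and the KO libraries ran from 285 over a median of 399 to 638. The groups did not overlap in set 1 and overlapped over the libraries of set 2. Over both sets the log2 fold change was 0.93 ± 0.18 (SE, adjusted p = 0.00207), in set 1 it was 1.17 ± 0.23 (adjusted p = 0.00334), and in set 2 it was 0.79 ± 0.23 and missed the threshold (adjusted p = 0.0725). With each library taken as a sample of its own, the call over both sets was lost (0.75, adjusted p = 0.112), but it was kept when the replicate number or the library group described below was added to that fit (1.06, adjusted p = 0.0142, and 0.86, adjusted p = 0.00231), and the set 1 call was lost without WT sample 1a (adjusted p = 0.0605).

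The genes of amino acid synthesis were lower by less than Ddit4 was higher. Asns was at 96.7, 94.8, 104 and 119 CPM in set 1 KO, against the 184 and 124 of WT given above, and at a lowest 14.8, median 31.6 and highest 38.5 CPM in set 2 KO. The KO values lay below both WT values in set 1 and overlapped with WT in set 2. The log2 fold change of Asns was -0.44 ± 0.12 over both sets (adjusted p = 0.0133) and the call was lost without WT sample 1a of set 1 (adjusted p = 0.13). Psat1, the aminotransferase of serine synthesis, was at 336 and 348 CPM in set 1 WT and at 318, 350, 325 and 273 in set 1 KO. In set 2 it was at 152, 228, 137 and 191 CPM in the WT libraries and from 99.0 over a median of 122 to 153 in KO. Its fold change over both sets was -0.30 ± 0.11 on the log2 scale (adjusted p = 0.048), a call that was kept in only 8 of 20 alternatives and was lost without any 1 of 10 samples, WT 2a among them (adjusted p = 0.292). Psat1 values overlapped between genotypes in set 1, and in set 2 overlapped by library.

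Among the tRNA synthetases, 2 of 4 were lower in KO over both sets, where 8.63% of all genes tested were called lower. Aars, which charges tRNA with alanine, was at 193 and 163 CPM in set 1 WT and at 128, 137, 131 and 133 in set 1 KO. In set 2 the WT libraries were at 73.2, 78.5, 68.9 and 58.0 CPM and the KO libraries ran from 38.1 over a median of 53.9 to 58.4. Aars had a log2 fold change of -0.50 ± 0.11 over both sets (adjusted p = 0.00199) and stayed called in 20 of 20 alternatives; its KO and WT libraries overlapped by 1 KO value in set 2. Sars, the serine enzyme, was at 245 and 285 CPM in set 1 WT and 252, 264, 209 and 201 in KO, and in set 2 at 140 to 190 CPM in WT and 122 to 136 in KO, with no overlap in set 2. Sars changed by -0.30 ± 0.10 on the log2 scale over both sets (adjusted p = 0.043), and that call was kept in 8 of 20 alternatives, with the highest adjusted p of 0.219 without WT 2a. Gars (-0.25, adjusted p = 0.0561) and Wars (0.11, adjusted p = 0.624) did not pass.

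In the ER arm, Hspa5, which encodes the main ER chaperone BiP (ENSMUSG00000026864, chromosome 2, 34771970 to 34777547), was at 929 and 961 CPM in set 1 WT and at 1505, 1795, 1540 and 1503 in set 1 KO. In set 2 it was at 1901, 1709, 1807 and 1636 CPM in WT and from 1991 over a median of 2137 to 2288 in KO. KO libraries were above every WT library in both sets. The log2 fold change of Hspa5 was 0.46 ± 0.10 over both sets (adjusted p = 0.0023, called in 20 of 20 alternatives), 0.74 ± 0.14 in set 1 (adjusted p = 0.00204) and 0.24 ± 0.10 in set 2 (adjusted p = 0.145). Calr, the lectin chaperone calreticulin, was at 749 and 647 CPM in set 1 WT and at 1028, 1129, 999 and 1001 in KO, and at 634 to 781 CPM in set 2 WT and 782 to 951 in KO. Calr rose by 0.34 ± 0.10 on the log2 scale over both sets (adjusted p = 0.0141), which was lost without WT 1b of set 1 (adjusted p = 0.101) and when the counts of each line were added up within a set (adjusted p = 0.107). The other 6 ER-arm genes did not pass: Hsp90b1 had a log2 fold change of 0.17, Xbp1 -0.17 and Herpud1 -0.11, with adjusted p from 0.287 to 0.95 over the 6.

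**Figure D2:**
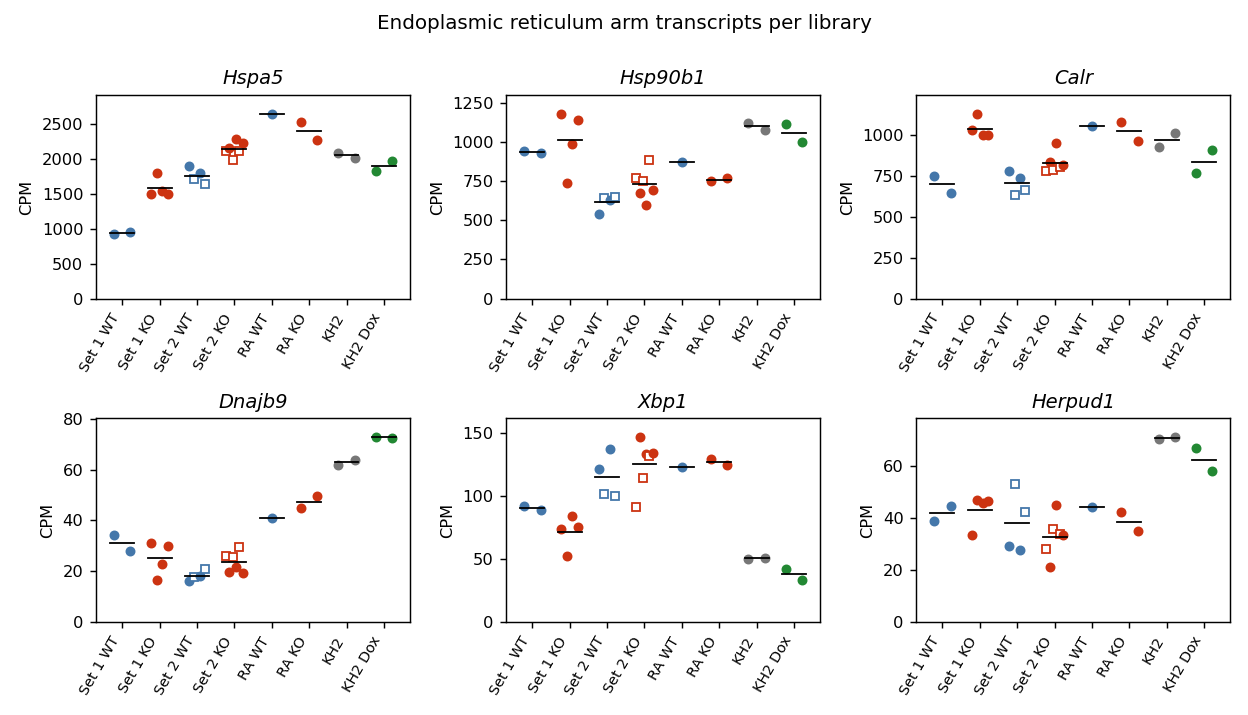
CPM of 6 ER-arm genes (y axes, from 0) in every library of the 8 groups, with colours, white squares and black mean lines as in the plot of ATF4-arm levels. Hspa5 lies higher in KO than in WT libraries of both sets, at 1503 to 1795 against 929 and 961 CPM in set 1.

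Within set 1, 28 of the 30 genes were tested and Ddit4, Hspa5 and Calr (0.57 ± 0.14, adjusted p = 0.0142) were the 3 called, all higher, where 7.19% of all genes were called higher and 5.1% lower. The Calr call of set 1 was lost without WT 1b (adjusted p = 0.126), and without KO1 1d 6 genes were called. Within set 2, 5 of 29 genes were called, all lower and all in the ATF4 arm, where 5.64% of all genes were called higher and 3.55% lower. They were Chac1, Psat1, Shmt2, Aars and Sars. Chac1 was at 8.13, 34.5, 8.44 and 24.2 CPM in the WT libraries and from 2.53 over a median of 5.73 to 12 in the KO libraries, so the groups overlapped by library, and its log2 fold change was -1.25 ± 0.33 (adjusted p = 0.0258). Shmt2, the mitochondrial serine hydroxymethyltransferase, was at 92.1, 78.5, 78.6 and 91.9 CPM in WT and from 55.1 over a median of 59.7 to 79.4 in KO, with 1 KO library reaching the WT range, and changed by -0.47 ± 0.12 (adjusted p = 0.0161). Psat1 (-0.43, adjusted p = 0.0285), Aars (-0.52, adjusted p = 0.0281) and Sars (-0.36, adjusted p = 0.0468) made up the rest.

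All 5 set 2 calls were lost without WT 2a, with adjusted p from 0.139 to 0.514, and without KO2 2e 1 gene was called. Without WT 2b, 2 were called, and without KO1 2c or KO1 2d 3 were; without KO2 2f the number rose to 8. Median log2 fold changes were -0.05 (ATF4 arm), 0.08 (ER arm) and -0.02 (all genes tested) in set 1, and -0.23, 0.20 and 0.01 in set 2. No gene of the 29 was called for a difference between the sets in its KO effect by edgeR's interaction term, where 0.828% of all genes were called. DESeq2's Wald test also called 0, and 6 of the 29 had an unadjusted p under 0.05 in edgeR. In simulated data the edgeR fit recovered 29% of 2-fold differences, so a difference of that size could be missed. Chac1 had the most negative difference, -1.24 ± 0.43 on the log2 scale (adjusted p = 0.241), having been at 52.1, 73.3, 60.4 and 47.1 CPM in set 1 KO. KO2 and KO1 lines had no gene of the 30 called between them in set 1 (0.0102% of all genes were) or in set 2 (0.0237%), by edgeR or by DESeq2's Wald test, and 4 genes in set 1 and 0 in set 2 had an unadjusted p under 0.05.

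Genes of the same pathways outside the 30 were counted from lists chosen with earlier results of these data known. Over both sets, 10.4% of all genes tested were called higher in KO and 8.63% lower. Of 31 other ATF4 targets tested, 1 was higher and 5 were lower in KO over both sets, led by Got1 (-0.55 ± 0.09, adjusted p = 0.000105), which makes aspartate, Pycr1 of proline synthesis (-0.77 ± 0.21, adjusted p = 0.0121) and Yars (-0.35 ± 0.10, adjusted p = 0.0152). Of 26 other unfolded protein response genes, 5 were higher and none was lower, led by the disulfide isomerases P4hb (0.43 ± 0.09, adjusted p = 0.00118) and Pdia6 (0.33 ± 0.09, adjusted p = 0.00753) and the degradation factor Sel1l (0.42 ± 0.12, adjusted p = 0.0182). None of 17 genes for eIF2 kinases, eIF2, eIF2B and the stress sensors was called. Of 13 heat shock genes, 2 rose (Bag3 0.67, Hspa1a 1.14) and 2 fell (Hspb1 -0.55 among them), and of 10 NRF2 targets Srxn1 fell (-0.55).

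Other cell-type and pathway markers moved with genotype beside these genes. The summed level of 24 p53 targets was 1421 to 1488 CPM in set 1 WT and 2302 to 2466 in KO, and 1577 to 1792 and 2506 to 2735 in set 2, with 14 of 22 tested called higher and none lower. Summed over 19 primitive and visceral endoderm markers, set 1 WT had 1464 to 1639 CPM and KO 3253 to 4050, and set 2 WT had 1430 to 1571 and KO 2189 to 2782. The 24 fibroblast markers summed to 55.5 to 86.0 CPM in set 1 WT, with Postn, Lum, Dcn and Fap at 0, and to 384 to 616 in KO, and to 319 to 424 and 474 to 882 in set 2. The 12 ESC markers were present in all groups and summed to 4168 to 4827 CPM in set 1 WT against 1925 to 2419 in KO, and to 2577 to 3257 against 1840 to 2412 in set 2. The 10 neural markers summed to 642 to 736 CPM in set 1 WT and 381 to 462 in KO, and to 625.5 to 764 and 427 to 494 in set 2, with 1 of 6 tested called higher and 4 lower in KO over both sets. The part of these shifts in the results above was not tested.

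**Figure D3:**
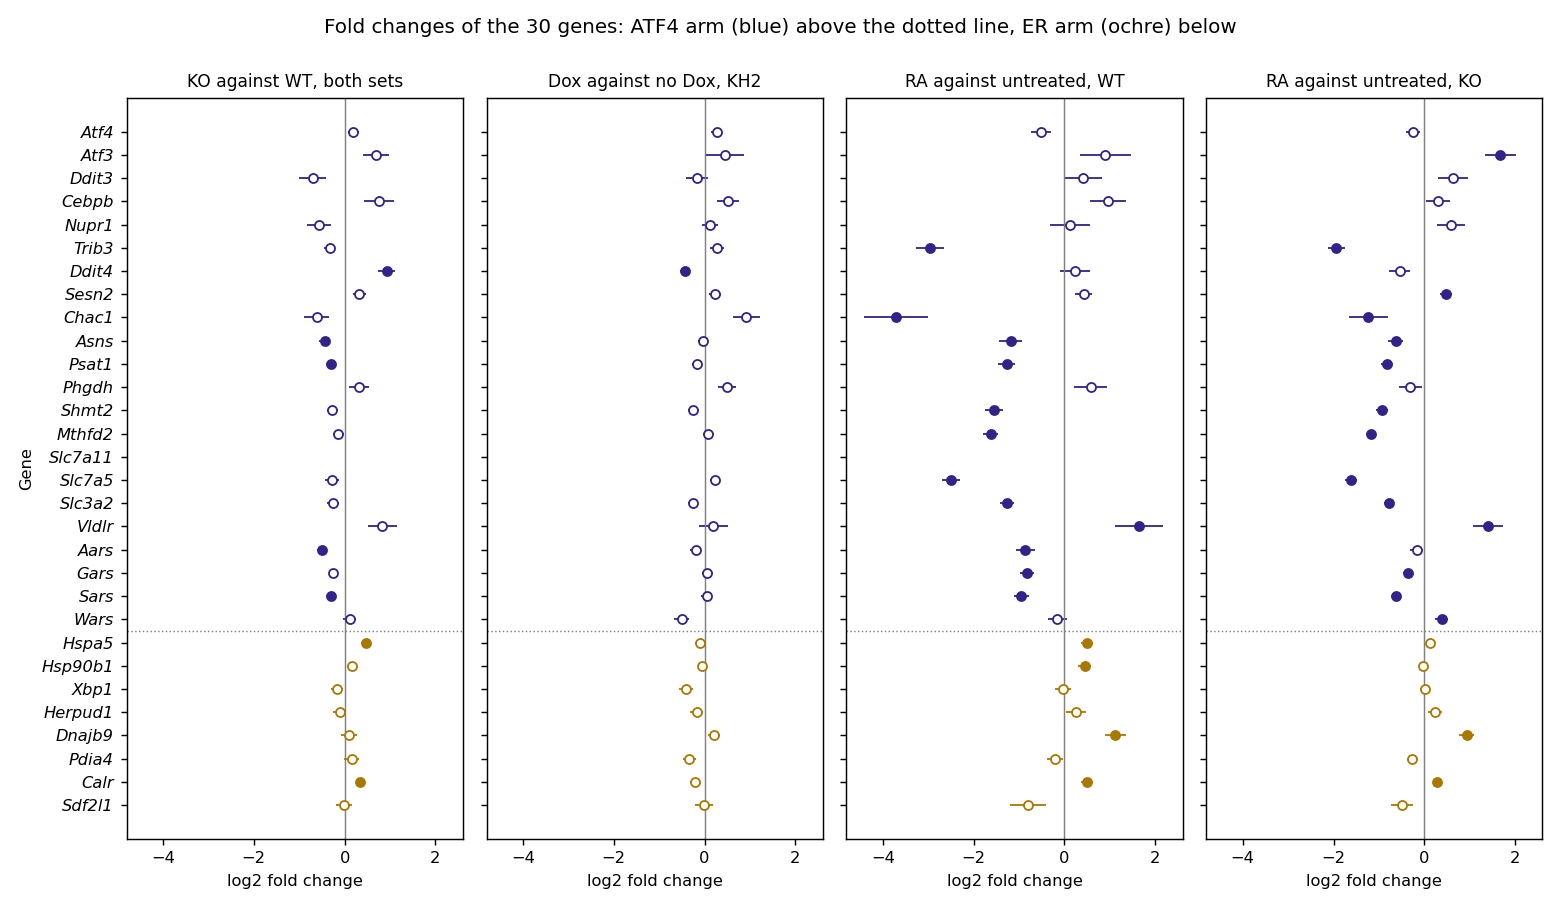
Log2 fold change with its SE (x axes) for each of the 29 genes tested (y axis) in 4 comparisons, ATF4 arm in blue and ER arm in ochre, filled where the edgeR adjusted p was at most 0.05. RA gave the widest spread, from Chac1 at -3.71 to Vldlr at 1.65 in WT.

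Libraries of one title code differed from each other in set 2, and this touched the ATF4 arm. Each of 2a, 2b, 2d and 2e has 2 libraries with consecutive replicate numbers, and the labels do not say what separates them. In a comparison added after the data were seen, the second library was compared with the first with the code as a block, and 4 of 28 genes were called, all higher in the second (4.66% of all genes were called higher and 3.98% lower). Chac1 went from 8.13 to 34.5 CPM in 2a, from 8.44 to 24.2 in 2b, from 4.76 to 12 in 2d and from 3.51 to 9.99 in 2e (log2 fold change 1.62 ± 0.25, adjusted p = 0.000605). Ddit4 went from 119.9 to 454 CPM, 132 to 401, 362 to 477 and 285 to 638 in the same order (1.23 ± 0.26, adjusted p = 0.0448). Nupr1, a stress-induced chromatin protein, went from 4.74 to 13.6, 3.02 to 12.3, 4.28 to 7.83 and 4.21 to 6.82 CPM (1.38 ± 0.35, adjusted p = 0.0171). Psat1 went from 152 to 228, 137 to 191, 99.0 to 147 and 114 to 153 CPM (0.50 ± 0.10, adjusted p = 0.0054). All 4 genes were higher in the second library of all 4 codes.

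Leaving out both libraries of a code removed the Ddit4 call for 2b or 2e (adjusted p = 0.107 and 0.222), that of Nupr1 for 2a or 2b (0.0842 and 0.209) and that of Psat1 for 2a (0.064), while Chac1 stayed called for each. No ER-arm gene was called; Hspa5 had a log2 fold change of -0.15 (adjusted p = 0.381) and Herpud1, the ER-arm gene with the ATF4-type core, 0.43 (adjusted p = 0.187). The median was 0.12 over the 20 ATF4-arm genes tested, 0.07 over the ER arm and 0.01 over all genes tested.

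**Figure D4:**
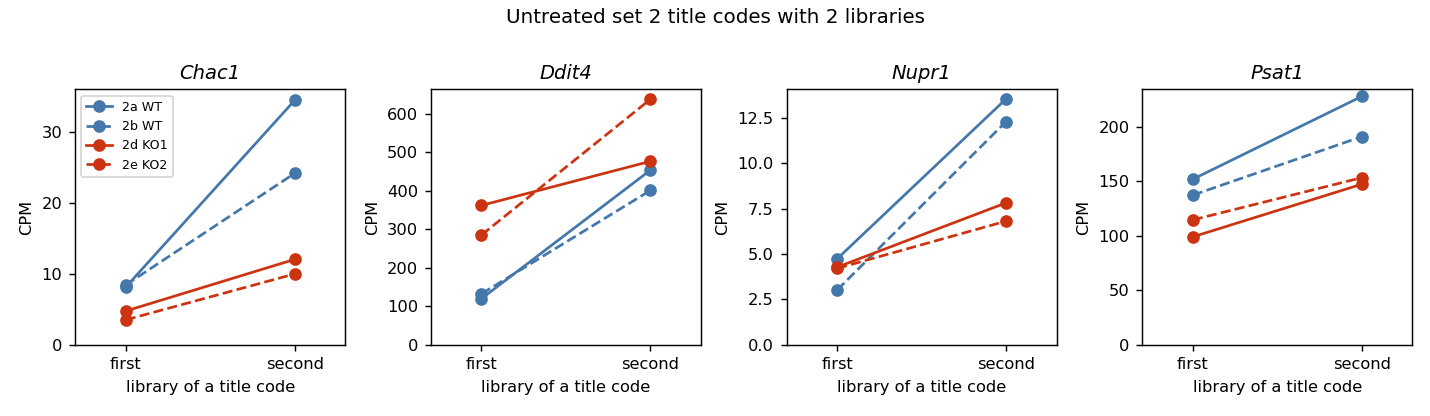
CPM (y axes, from 0) of the 4 genes called between the first and second library of the title codes 2a and 2b (WT, blue) and 2d and 2e (KO, red), each line joining the 2 libraries of a code. Chac1 went from 8.13 to 34.5 CPM in 2a and from 3.51 to 9.99 in 2e.

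The same division ran through all untreated set 2 libraries. For each gene that passed the count filter, the mean of WT, KO1 or KO2 was first subtracted, which removed differences between genotypes and lines. The first principal component held 33.9% of the variance that was left. Along it the libraries fell into 2 groups. The first libraries of the 4 codes and KO2 2f were in group A, and the second libraries and KO1 2c in group B. Each group holds 2 WT and 3 KO libraries. Within group A, 1 gene was called between KO and WT, Ddit4 (1.32 ± 0.13, adjusted p = 5.25e-05), where 4.06% of all genes were called. Within group B, 14 were called, 12 lower and 2 higher in KO, where 13.7% of all genes were called. The lower ones of group B include Trib3, which was at 65.5 and 68.1 CPM in WT and 31.9 to 42.4 in KO of group B (-0.95 ± 0.16, adjusted p = 6.23e-06), but at 32.5 and 35.1 CPM in WT and 34.1 to 35.8 in KO of group A. Slc7a5 (-0.64 ± 0.09), Psat1 (-0.60 ± 0.10), Atf4 (-0.60 ± 0.10) and Chac1 (-1.65 ± 0.27) were also lower in KO of group B, and the higher ones were Hspa5 (0.25) and Hsp90b1 (0.25). The ER-arm gene Herpud1 was also lower there (-0.61 ± 0.18, adjusted p = 0.0137). Chac1 in group A was at 8.13 and 8.44 CPM in WT and 2.53 to 4.76 in KO, and its log2 fold change there was -1.26 (adjusted p = 0.0927). With all 10 libraries as samples of their own and the group as a covariate, 7 genes were called, 6 of the ATF4 arm lower and 1 of the ER arm higher, where 14% of all genes were called, and Chac1, Psat1, Shmt2, Aars and Sars were among the lower ones (adjusted p from 1.95e-05 to 0.00925). The fit of all 10 libraries counts the 2 libraries of a code as separate samples, and its groups were drawn from these same libraries. Its p-values may therefore be too small. Whether the KO effect differs between groups A and B was not tested.

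RA gave the most calls among these genes and among all genes tested, of which 47.3% were called in WT and 55.1% in KO. The total of 16 of 29 genes called in each genotype is near those shares. In WT cells 16 of the 29 genes were called after 4 days, 5 higher and 11 lower, where 24.8% of all 14659 genes tested were called higher and 22.5% lower. Of the 21 ATF4-arm genes 11 fell and only Vldlr rose, while of the 8 ER-arm genes 4 rose and none fell. The median log2 fold change was -0.82 over the ATF4 arm, 0.35 over the ER arm and -0.03 over all genes tested. The RA group of WT is 1 library (2g), so its spread was taken from the other groups.

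Among the regulators Trib3, a pseudokinase that inhibits ATF4 as feedback, was at 32.5, 65.5, 35.1 and 68.1 CPM in the 4 untreated WT libraries and at 6.15 CPM after RA. Its log2 fold change was -2.96 ± 0.31 (adjusted p = 8.54e-09). Chac1 was at 1.28 CPM after RA, which is 5 counts, against 8.13 to 34.5 before (-3.71 ± 0.71, adjusted p = 0.000153). Both lay under every untreated library. Atf4 mRNA was at 366, 514, 305 and 506 CPM untreated and 290 after RA (-0.52 ± 0.22, adjusted p = 0.0615), and Ddit4, Sesn2, Nupr1, Atf3, Cebpb and Ddit3 did not pass either. Thus 2 of the 9 regulators fell and none rose in WT, where 22.5% of all genes tested were called lower and 24.8% higher. The share of regulators that fell is near that of all genes.

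Amino acid and one-carbon synthesis fell in 4 of its 5 genes, where 22.5% of all genes tested were called lower. Asns went from 33.2, 42.9, 38.0 and 39.6 CPM to 17.7 (-1.18 ± 0.25, adjusted p = 0.000269). Psat1 went from between 137 and 228 CPM to 73.8 (-1.27 ± 0.19, adjusted p = 2.65e-06). Shmt2 went from between 78.5 and 92.1 CPM to 29.4 (-1.56 ± 0.20), and Mthfd2, the mitochondrial folate enzyme, from 185, 252, 194 and 248 CPM to 72.5 (-1.62 ± 0.17, adjusted p = 5.84e-09). Phgdh, the first enzyme of serine synthesis, was at 6.30 to 14.1 CPM before and 12.8 after RA and did not pass (0.58, adjusted p = 0.195).

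Of the transporters, Slc7a5 went from 288, 377, 232 and 427 CPM to 56.3 in WT (-2.50 ± 0.19, adjusted p = 3.04e-11). Its heavy chain partner Slc3a2 went from 227, 239, 255 and 228 CPM to 105 (-1.26 ± 0.16, adjusted p = 2.45e-07). Vldlr, a lipoprotein receptor listed with the ATF4 targets, was at 0.88 to 3.96 CPM untreated and 6.4 after RA (1.65 ± 0.53, adjusted p = 0.012), a call lost without WT 2b (adjusted p = 0.18). The tRNA synthetases Aars (-0.86 ± 0.21), Gars (-0.82 ± 0.16) and Sars (-0.95 ± 0.17) fell to 40.7, 96.5 and 87.1 CPM, and Wars did not pass (-0.16, adjusted p = 0.553). All 4 had been measured at 49.7 CPM or more before RA.

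In the ER arm Hspa5 rose from between 1636 and 1901 CPM to 2648 (0.51 ± 0.13, adjusted p = 0.00222) and Calr from between 634 and 781 to 1055 (0.50 ± 0.13, adjusted p = 0.00235). Hsp90b1, the ER form of HSP90, rose from between 539 and 648 CPM to 874 (0.44 ± 0.14, adjusted p = 0.00822; 0.0628 without WT 2a). Dnajb9, a BiP co-chaperone and target of XBP1, rose from 16.3, 17.5, 18.1 and 20.7 CPM to 41.0 (1.12 ± 0.23, adjusted p = 0.000264). Hspa5, Hsp90b1 and Calr hold the ER stress response element printed above, while Dnajb9 had neither form of it in its window. Whether the element plays a part in these changes was not tested. Xbp1 mRNA was at 99.3 to 137 CPM before and 123 after RA (-0.03, adjusted p = 0.892), and 3′ tags do not show its splicing. Herpud1, which holds the second form of the element, did not pass (0.26, edgeR adjusted p = 0.359), and neither did Pdia4 and Sdf2l1.

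In KO cells 16 of 29 genes were called after RA, 6 higher and 10 lower, where 28.3% of all genes were called higher and 26.8% lower. The comparison set 2h and 2i, both titled KO1, against the 4 untreated KO samples of both lines. The name of the deposited file of 2i matches those of the set 2 KO2 samples rather than KO1, so which line 2i is remains uncertain. The largest falls were in Trib3, from a lowest 31.9, median 35.4 and highest 42.4 CPM to 8.72 and 10.6 (-1.94 ± 0.20, adjusted p = 3.08e-09), and in Slc7a5, from 171, 266 and 320 CPM in the same order to 90.2 and 88.2 (-1.62 ± 0.13, adjusted p = 2.32e-11). Mthfd2 (-1.17 ± 0.11), Shmt2 (-0.93 ± 0.14), Psat1 (-0.83 ± 0.13), Slc3a2 (-0.78 ± 0.11), Asns (-0.64 ± 0.17) and Sars (-0.63 ± 0.12) fell as well. Chac1 was at 1.98 and 4.08 CPM, within the untreated KO range of 2.53 to 12 for 1 of the 2 samples (-1.23 ± 0.43, adjusted p = 0.0189), and lost its call without KO2 2e (0.267), KO1 2d (0.0745) or the RA sample 2h (0.232). Gars fell by 0.37 ± 0.11, lost without 2i (adjusted p = 0.0705), and Asns lost its call without 2h (0.0656).

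The genes that rose in KO cells under RA numbered 6. Atf3, an early stress factor, was at 1.22 to 4.92 CPM in the untreated libraries and 8.32 and 8.37 after RA (1.68 ± 0.35, adjusted p = 0.000184). Sesn2, an inhibitor of mTORC1 that senses leucine, was at 47.7 to 88.5 CPM before and 89.5 and 88.6 after (0.47 ± 0.13, adjusted p = 0.00341). Vldlr went from 0.70 to 4.59 CPM to 8.72 and 8.98 (1.40 ± 0.34), and Dnajb9 from 19.3 to 29.5 CPM to 45.0 and 49.6 (0.93 ± 0.16, adjusted p = 1.73e-05). Calr (0.29 ± 0.09, adjusted p = 0.0109; 0.181 without 2h) and Wars (0.38 ± 0.14, adjusted p = 0.023; 0.201 without 2h, 0.0675 without KO1 2c, 0.0774 without KO2 2f) rose least. Hspa5 was at 1991 to 2288 CPM before and 2536 and 2276 after RA and was not called (0.12 ± 0.09, adjusted p = 0.29). Hsp90b1 was not called in KO either (-0.03 ± 0.10, edgeR adjusted p = 0.83). The medians were -0.37 over the ATF4 arm, 0.07 over the ER arm and -0.01 over all genes tested.

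Related genes outside the 30 gave the following counts under RA. Of all genes tested, 24.8% were called higher and 22.5% lower in WT, and 28.3% and 26.8% in KO. Of 31 other ATF4 targets tested, 3 were higher and 20 lower in WT, and 3 higher and 18 lower in KO, with the cationic amino acid transporter Slc7a3 at -3.39 ± 0.21 in WT and -3.23 ± 0.15 in KO and the folate enzyme Mthfd1l at -1.83 ± 0.17 and -1.11 ± 0.11. Of 27 other unfolded protein response genes, 12 were higher and none lower in WT and 12 higher and 2 lower in KO, led by Ssr3 (1.25 and 0.81), Pdia3 (1.07 and 0.86) and Dnajc3 (1.08 and 0.99). Among 17 eIF2 kinase, eIF2 and eIF2B genes, 3 rose and 6 fell in WT, with the eIF2B subunits Eif2b3 (-1.33 ± 0.22), Eif2b4 (-1.02 ± 0.16) and Eif2b5 (-0.89 ± 0.15) the clearest. Heat shock genes (2 higher, 5 lower of 13, Hsp90aa1 -1.39) and NRF2 targets (1 higher, 7 lower of 10, Prdx1 -1.26) also had more falls than rises in WT.

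Cell-type markers also differed between RA and untreated samples. The 24 fibroblast markers summed to 5766 CPM in the WT RA library, with Lum at 0, and to 5608 and 6346 in the KO RA libraries, against at most 882 in untreated set 2, and 19 of 22 tested rose in each genotype (Acta2 by 4.78 on the log2 scale in WT). The 12 ESC markers summed to 296 CPM in WT and 348 and 351 in KO, and 12 of 12 fell in each genotype. Endoderm markers summed to 4624 CPM in WT and 6569 and 6708 in KO after RA, but did not all move one way. Of 17 tested, 7 were higher and 2 lower in WT (median log2 fold change 0.08), and 12 higher and 2 lower in KO (0.72). In WT, 24.8% of all genes were called higher and 22.5% lower, and in KO 28.3% and 26.8%. Neural markers summed to 621 CPM in WT and 509 and 560 in KO. Of 8 tested, 4 were higher and 1 lower in WT, and 5 higher and 2 lower in KO. The p53 targets summed to 4909 in WT and 5071 and 5635 in KO. The part of these shifts in the ATF4 and ER changes was not tested.

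Between KO and WT cells after RA, none of the 29 genes was called (0.396% of all genes were; 2 KO1 samples against 1 WT library), where DESeq2's Wald test also called 0 and 2 genes had an unadjusted p under 0.05 in edgeR. Slc7a5 came closest, at 90.2 and 88.2 CPM in KO and 56.3 in WT (0.64 ± 0.19, adjusted p = 0.252). In simulated data the edgeR fit recovered 33% of 2-fold differences between KO and WT after RA. For 2-fold differences in the RA effect between genotypes it recovered 27%, so differences of that size could be missed. The RA effect differed between genotypes for 1 gene, Slc7a5, whose difference in log2 fold change, KO minus WT, was 0.88 ± 0.22 (adjusted p = 0.0442), where 1.09% of all genes were called. That call was lost in 8 of 13 alternatives, among them without WT 2a (adjusted p = 0.189), WT 2b (0.0735), KO1 2d (0.0575) or either KO RA sample (0.185 and 0.15). Chac1 (2.48 ± 0.90, adjusted p = 0.251), Trib3 (1.03 ± 0.39, adjusted p = 0.262) and Hsp90b1 (-0.47 ± 0.17, adjusted p = 0.223) did not pass. The median difference was 0.46 over the ATF4 arm, -0.12 over the ER arm and -0.01 over all genes tested; the RA samples and the untreated set 2 samples enter several of these comparisons.

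Dox in KH2 cells left most of the genes without a call. Ddit4 was the only one called of 29, at 1181 and 1157 CPM without Dox and 909 and 816 with Dox (-0.43 ± 0.10, adjusted p = 0.0261), where 0.896% of all genes were called higher and 0.904% lower. Its groups did not overlap, and the call was lost without either untreated sample (adjusted p = 0.149 and 0.347) or without the second Dox sample (0.106). Chac1 was at 6.11 and 6.39 CPM without Dox and 14.4 and 9.08 with Dox (0.92 ± 0.29, adjusted p = 0.101). Hspa5 was at 2093 and 2015 CPM without and 1827 and 1967 with Dox (-0.11 ± 0.10, adjusted p = 0.656), and Calr at 924 and 1013 against 766 and 906 (-0.21 ± 0.11, adjusted p = 0.384). Median log2 fold changes were 0.08 (ATF4 arm), -0.14 (ER arm) and 0.00383 (all genes tested). Of 31 other ATF4 targets, Slc7a1 (0.67 ± 0.16), Gpt2 (0.50 ± 0.12) and Gdf15 (0.55 ± 0.14) rose and none fell, and of 26 other unfolded protein response genes Manf fell (-0.50 ± 0.13). Fibroblast markers summed to 1177 and 1245 CPM without Dox and 699 and 860 with Dox, 5 of 21 tested being lower, and the part of this shift was not tested.

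The mean level of each arm gives the contrast between them in every library. As the mean of log2(CPM + 1) over its genes, the ATF4 arm was at 5.86 ± 0.05 (SD, n = 2) in set 1 WT and 5.97 ± 0.03 (n = 4) in set 1 KO, 5.37 ± 0.22 (n = 2) and 5.26 ± 0.08 (n = 4) in set 2, 4.79 in the WT RA sample and 5.03 ± 0.07 (n = 2) in the KO RA samples, and 6.004 ± 0.036 and 6.08 ± 0.02 (n = 2 each) in KH2 cells without and with Dox. The ER arm was at 7.30 ± 0.02 and 7.40 ± 0.07 in set 1 WT and KO, 7.10 ± 0.03 and 7.25 ± 0.10 in set 2, 7.39 and 7.40 ± 0.10 after RA, and 7.44 ± 0.02 and 7.30 ± 0.06 in KH2. The ATF4 arm was lowest in the RA libraries, at 4.79, 4.98 and 5.08, and only the first library of WT 2b, also at 5.08, reached into that range. The ER arm of the RA libraries was at 7.33 to 7.47, against at most 7.46 in untreated R1 libraries.

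The ATF4 mean minus the ER mean, which has no meaning as a level because the 2 arms hold different genes that differ in tag yield, changed between groups. From WT to KO it moved by 0.01 in set 1 (-0.04 with a pseudocount of 5) and by -0.26 in set 2, where the 4 WT libraries were at -1.83, -1.47, -1.99 and -1.57 and the 6 KO libraries at -1.87 to -2.13. KO and WT libraries overlapped in set 2 through the first library of 2b. With RA it moved by -0.87 in WT and -0.38 in KO, and with Dox by 0.22. No p-value is given for these scores, since their genes were chosen with results of these data known.

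**Figure D5:**
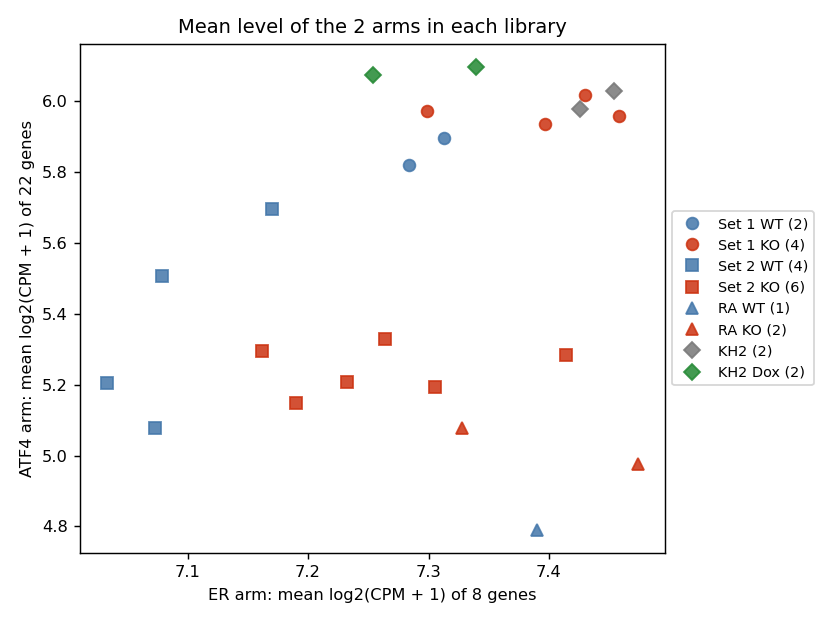
Mean log2(CPM + 1) of the 22 ATF4-arm genes (y axis) against that of the 8 ER-arm genes (x axis), 1 point per library, coloured by genotype or Dox and shaped by set, RA or line. The 3 RA libraries lie at the bottom (ATF4 mean 4.79 to 5.08) with ER means of 7.33 to 7.47.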

How the data were processed

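Tags of 3′ mRNA libraries (QuantSeq, poly(A) RNA) were analysed from 23 mouse ESC libraries. Per the file headers, the authors made the deposited counts by running featureCounts 1.6.0 with the GRCm38 annotation of Ensembl release 97 and default options (no strand, reads that overlap several genes not counted), and STAR 2.5.4b and Subread 2.0.0 are named in the submitters' processing notes. The values are whole-number counts per gene with no normalization. Libraries of one title code were summed, giving 19 samples with 806412 to 10217040 assigned counts. CPM in the text are counts scaled to an assigned total of 1000000, and 3 counts were taken as the floor.

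Tests used edgeR 4.0.16 (R 4.3.3) quasi-likelihood fits with TMM factors (0.917 to 1.13), filterByExpr (minimum count 10, minimum total 15) and Benjamini-Hochberg adjustment over all genes tested, with 0.05 as the threshold. Each fit held the samples of its set or line, with untreated set 2 and RA samples fitted together for RA, and was tested on simulated data. Alternatives were DESeq2 1.42.0 size factors and Wald tests, no filter, each sample left out, every library as its own sample, a replicate block, counts added up by line within each set, KO1 alone as the untreated KO, and the 2 library groups of set 2. The KO effect over both sets had the set as a term. The 2 samples labelled KO1 after RA were compared with the mean of KO1 and KO2.

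The members and the related lists were chosen with earlier results of these data known. Every member is accounted for. Most of those called are given with library values or ranges, and some, in some comparisons, with a fold change only. At most 3 called genes with the smallest adjusted p are named from each related list. The comparison of the 2 libraries of a title code was chosen after seeing the data. Promoter windows are RefSeq's. Figures were drawn with matplotlib 3.10.9.

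A promoter sequence is not reported here.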

Additional observations from a re-analysis of the deposited data

Results flagged for a closer look

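In groups of 4 to 10 samples, each gene's highest and lowest sample was compared with the rest by Dixon's gap test. Of the 60 groups of values looked at, 3 had a sample apart, and chance flags about 1 in 20. Hspa5 in KO1 sample 1d of set 1 was at 1795 CPM, with the other 3 KO samples at 1503 to 1540. Herpud1 in KO1 sample 1c of set 1 was at 33.5 CPM, with the others at 45.8 to 46.7. Slc7a11 in KO2 sample 2f of set 2 was at 0.63 CPM (0.631, from 2 counts), with the others at 0.353 to 0.369, which is at the limit of the depth. The RA effect on Slc7a5 differed between KO and WT by 0.88 on the log2 scale by an interaction term (edgeR adjusted p = 0.0442), a call that was lost in 8 of 13 alternatives.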

How the results depend on the processing

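Counts below are of the genes called among the 30. No called gene changed sign under any alternative run. Over both sets, the 7 genes called between KO and WT became 4 to 11 with 1 sample left out, 4 when the counts of each line were added up within a set, and 11 with each library as a sample of its own and the library group of set 2 as a covariate (6 with each library as a sample of its own alone). In set 1 the 3 became 5 without the filter and 3 to 6 with 1 sample left out. In set 2 the 5 became 1 to 8 with 1 sample left out, 1 within library group A, 14 within group B, 4 with each library as a sample of its own and 7 with that and the library group as a covariate. The difference between sets went from 0 to 1 without the filter, KO2 against KO1 in set 1 ran from 0 to 1 and Dox from 0 to 2 with 1 sample left out. For RA by genotype the 1 gene became 0 with DESeq2 size factors, 0 with its Wald test, 0 with every library as its own sample, 2 without the filter and 0 to 2 with 1 sample left out. Between the libraries of a title code the 4 became 2 to 8 with a code left out and 1 without the code as block. RA calls stayed at 16 to 18 in WT and 13 to 17 in KO with 1 sample left out. The change in ATF4 mean minus ER mean was -0.0351 in set 1 and 0.178 with Dox at a pseudocount of 5, against 0.01 and 0.22, so the sign of the set 1 value turned. Of 709 alternatives for single genes 612 stayed on the same side of the threshold and 97 lost a call. The cause was not tested.

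A replicate block, with the labels' replicate numbers as a factor, gave 3 calls in set 1 and 3 with Dox, and, fitted with each library as a sample of its own, 4 over both sets and 1 in set 2. The numbers do not establish pairs: deviations from the group mean correlated between same-numbered libraries at -0.155 to 0.0494 in set 1, -0.305 to 0.311 in set 2 and 0.0615 in KH2 (8949 genes). Set 1 holds the fewest counts, so small changes of genes under a few CPM were not detectable there, and Slc7a11 could not be assessed in any group. RA in WT rests on 1 library.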
